A study of Mus musculus with 8 samples.

Results

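The genes described are 10 genes that build meiotic chromosome cohesion and tether meiotic telomeres to the nuclear envelope. They were taken by gene symbol from a deposited table of 55357 genes, and all 10 were found. RNA was measured in a germ cell fraction from the testes of 15-day-old C57BL/6 male mice, 4 controls and 4 conditional knockouts (cKO), with 1 library per mouse. Both genotypes carried homozygous floxed alleles of *Mgat2*, which encodes the GlcNAc-transferase needed for biantennary complex N-glycans. The cKO mice (*Mgat2*[F/F]:*Stra8*-iCre) also carried the *Stra8*-iCre transgene, which drives Cre recombinase in spermatogonia, and the controls (*Mgat2*[F/F]) did not, so loss of *Mgat2* and presence of the transgene cannot be told apart. The fraction was made by enzymatic digestion and filtration of tubules with no cell sort, and it is a mixture of cell types. The comparison asks whether transcripts of these genes differed between genotypes at an age when the first spermatocytes are in meiotic prophase.

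In meiotic prophase, sister chromatids are held together by cohesin rings in which meiotic subunits replace or join those used in mitosis. The kleisins REC8 and RAD21L close the ring, SMC1B pairs with SMC3, and STAG3 binds the kleisin. At chromosome ends, the TERB1, TERB2 and MAJIN proteins fix the telomere to the inner nuclear membrane, where SUN1 and KASH5 span the envelope and connect it to cytoplasmic dynein, and Speedy A (*Spdya*) activates CDK2 there. Mice that lack these proteins generally arrest in prophase and are sterile.

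Total expected counts were 12584726 to 15907505 in controls and 14069373 to 15572196 in cKO libraries, so 3 counts were worth 0.189 to 0.238 CPM (counts scaled to a common library size). Of the table, 20187 genes reached a TPM (RSEM's transcript abundance, scaled for depth and gene length) of 1 in at least 1 library and were tested, among them all 10 genes described. *Mgat2* itself had 69.8, 31.8, 64.3 and 59.8 CPM in controls 1 to 4 and 35.3, 20.1, 37.6 and 16.03 CPM in cKO 1 to 4, where CPM are normalized by TMM. The groups overlapped, since control 2 lay below cKO 1 and cKO 3, and the log2 fold change (cKO over control, as throughout) was -1.05 ± 0.36 (SE; edgeR adjusted p = 0.47, DESeq2 adjusted p = 0.025). Exons of *Mgat2* share 304 bases with *Rpl36al*, a ribosomal protein gene on the other strand with a mean of 268.6 TPM, and reads of these non-stranded libraries cannot be assigned to a strand. Sertoli cell markers were high in every library, with a summed level of 6285 to 7682 TPM in controls and 6514 to 7834 TPM in cKO samples, against 323 to 412 and 333 to 386 TPM for markers of early meiotic prophase. The Sertoli marker *Clu* alone had 3754 to 4543 TPM in controls, and pachytene markers summed to 651 to 2371 TPM there. Sums of different lists do not measure shares of cells. In such a bulk fraction, fewer cells of a type and less RNA per cell cannot be told apart.

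Of the 10 genes, 0 were called between genotypes by edgeR's quasi-likelihood test at an adjusted p of 0.05, against 0.0396% of all genes tested, and DESeq2 (1.5% of all genes) and limma-voom (0.0%) also called 0 of them. With replicate number as a block, edgeR called 2 (*Kash5*, adjusted p = 0.014, and *Spdya*, 0.033) and 1464 of all 20187 genes. The numbers are not read as pairs, as set out further on. At an unadjusted p under 0.05, 3 were lower in the cKO samples (*Kash5*, *Spdya* and *Stag3*), where 6.28% of all genes were, and 0 were higher, where 2.62% were. The point estimate was negative for 7 genes and positive for 3, although those of *Smc1b*, *Sun1* and *Rec8* changed sign under other processing, with a median log2 fold change of -0.15 beside 0.01 over all genes tested. The normalized CPM of the genotypes overlapped for every one of the 10. Of all genes, 3.03% were lower and 2.47% higher without overlap, so 0 of 10 does not set these genes apart. On the TPM scale, *Stag3* and *Kash5* were lower without overlap, where 3.39% of all genes were. Control 4 was the lowest control in 9 of the 10 genes and control 3 the highest in 5.

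**Figure D1:**
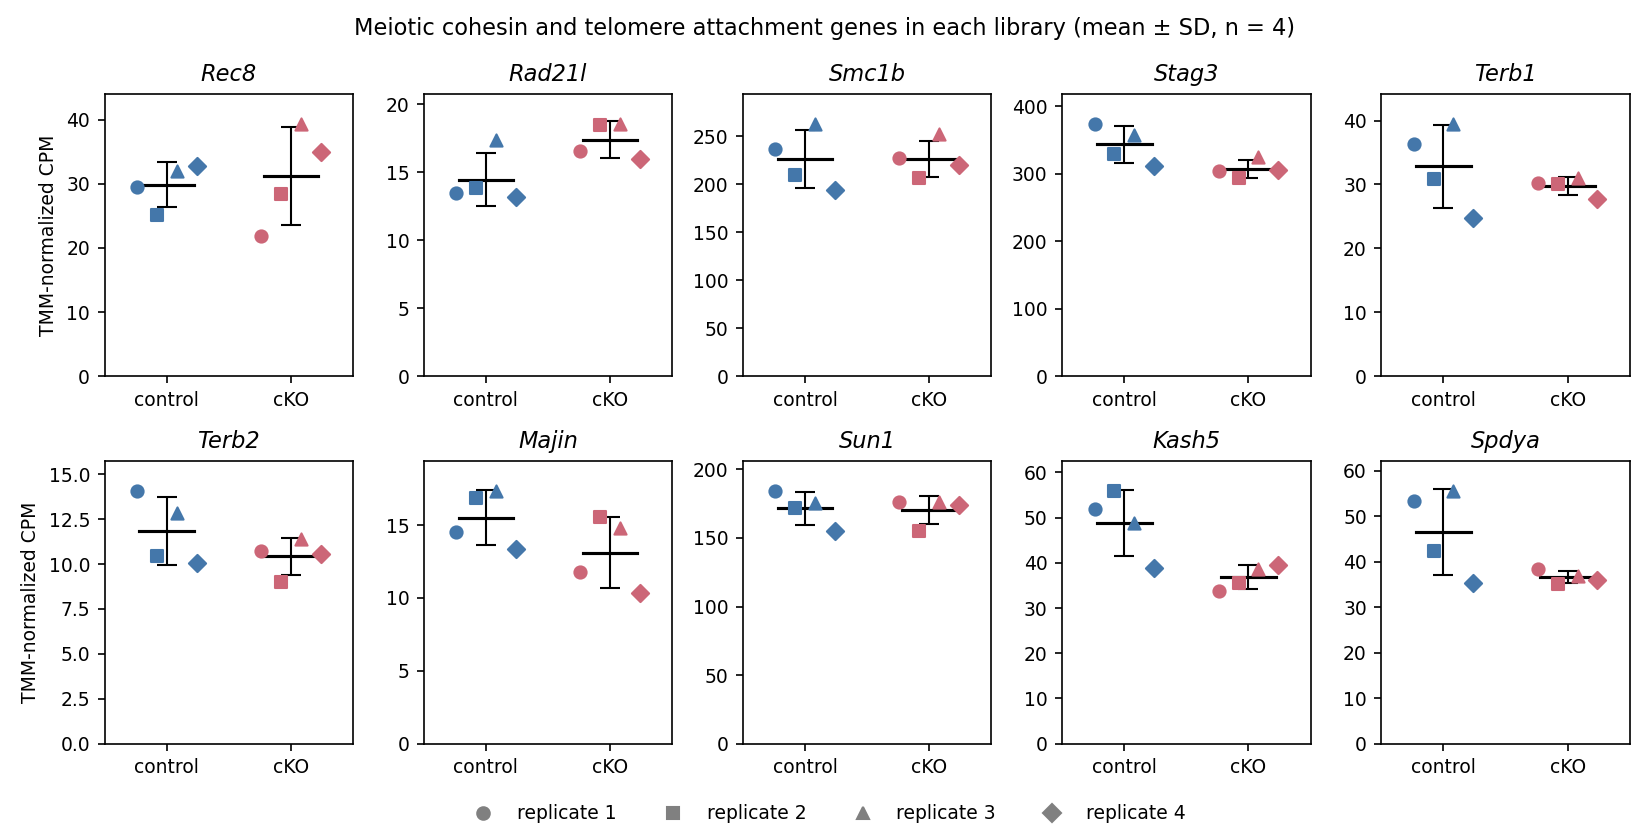
Each panel plots TMM-normalized CPM (linear axis from 0) of 1 gene in the 4 control and 4 cKO libraries, with marker shape for the replicate number and a bar for mean ± SD. *Kash5* and *Spdya* have controls 1 to 3 above the cKO libraries and control 4 among them, while *Sun1* and *Smc1b* have nearly equal means.

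Levels of the 10 genes differed by more than an order of magnitude on the TPM scale, which permits comparison between genes. In controls, *Stag3* was the most abundant at 174.6 ± 6.26 TPM (SD, n = 4), followed by *Sun1* at 107.2 ± 6.11 and *Smc1b* at 94.8 ± 12.9. *Spdya* had 49.9 ± 9.37, *Kash5* 39.0 ± 5.00 and *Rec8* 28.3 ± 5.16 TPM. *Majin* (21.1 ± 2.29), *Terb1* (20.3 ± 3.46), *Rad21l* (16.6 ± 2.13) and *Terb2* (10.4 ± 1.74) formed the low end. The order had 3 steps at which the control ranges of neighbours did not overlap: *Stag3* above *Sun1*, *Smc1b* above *Spdya*, and *Rad21l* above *Terb2*. All other neighbours in the control order overlapped. Against the mean level of all genes tested, *Stag3* stood at percentile 95.7 and *Terb2* at percentile 51.0. All 3 telomere complex genes thus had lower TPM than *Stag3*, *Smc1b*, *Sun1* and *Kash5*.

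Promoter sequence, the 250 bases before a transcription start, was found in RefSeq (GRCm38.p6, an earlier build than the GRCm39 of the gene positions given further on) for 8 of the 10 genes, as 9 windows because *Sun1* has 2 starts. *Terb2* and *Majin* had no entry. Sequences are shown for 4 genes: the most abundant gene (*Stag3*), the genes with the largest negative estimates (*Kash5* and *Spdya*) and the one with the largest positive estimate (*Rad21l*), which span CpG-rich to CpG-poor sequence. They read 5′ to 3′ on the strand of the gene, in lower case, with capitals for matches on either strand to CACGTG (an E-box) or TCCCGC (an E2F-like element).
Stag3: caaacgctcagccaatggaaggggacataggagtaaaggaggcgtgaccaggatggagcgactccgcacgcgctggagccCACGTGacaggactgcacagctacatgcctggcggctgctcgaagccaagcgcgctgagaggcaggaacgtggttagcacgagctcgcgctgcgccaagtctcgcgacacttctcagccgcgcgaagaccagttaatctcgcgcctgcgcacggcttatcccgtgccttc
Kash5: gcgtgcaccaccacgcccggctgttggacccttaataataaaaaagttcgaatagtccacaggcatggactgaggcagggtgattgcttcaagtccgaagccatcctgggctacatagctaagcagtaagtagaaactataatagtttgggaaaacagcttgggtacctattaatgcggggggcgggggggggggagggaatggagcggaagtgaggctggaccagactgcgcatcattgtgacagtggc
Spdya: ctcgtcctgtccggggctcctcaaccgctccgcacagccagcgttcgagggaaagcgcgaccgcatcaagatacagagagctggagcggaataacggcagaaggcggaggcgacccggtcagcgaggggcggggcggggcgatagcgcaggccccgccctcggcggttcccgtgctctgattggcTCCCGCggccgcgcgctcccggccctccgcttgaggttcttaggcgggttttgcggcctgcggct
Rad21l: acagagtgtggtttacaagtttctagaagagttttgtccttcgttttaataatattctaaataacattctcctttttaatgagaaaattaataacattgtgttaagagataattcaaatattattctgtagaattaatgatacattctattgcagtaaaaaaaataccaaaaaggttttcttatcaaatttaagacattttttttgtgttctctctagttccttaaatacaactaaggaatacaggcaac
*Stag3* was shown from chr5:138280259-138280508 (+), *Kash5* from chr7:45204893-45205142 (-), *Spdya* from chr17:71551811-71552060 (+) and *Rad21l* from chr2:151668534-151668783 (-). The windows hold 26, 9, 33 and 1 CpG dinucleotides, beside a median of 6 over 32851 mouse promoters. TCCCGC occurred in windows of 5 of the 8 genes (*Rec8*, *Smc1b*, *Terb1*, *Sun1* and *Spdya*). It occurs in 16.9% of all promoters, and in 37.3% of the 12417 with at least 10 CpG. CACGTG occurred only in the *Stag3* window (6.02% of all promoters). CNCCTCAG, an element resembling the site of the STRA8 and MEIOSIN factors that switch on meiosis, occurred in 0 of the 9 windows (6.42% of all promoters). No window held matches to both CACGTG and TCCCGC, so no matches overlapped.

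Among the cohesin genes, *Stag3* (ENSMUSG00000036928; GRCm39 chromosome 5, 138278502 to 138310655, + strand) had 374.1, 329.3, 358.2 and 312.2 CPM in controls 1 to 4 and 303.4, 293.6, 324.6 and 305.9 CPM in cKO 1 to 4. Only cKO 3 lay above a control, namely control 4, and on the TPM scale all controls (169.4 to 182.6) lay above all cKO samples (137.7 to 155.4), as did 3.39% of all genes. Its log2 fold change was -0.16 ± 0.07 (SE), with a 95% confidence interval of -0.32 to -0.00. It did not pass the edgeR test (unadjusted p = 0.047, adjusted p = 0.56), and the exact two-sided permutation p of the CPM was 0.057, where 0.0286 is the smallest that 70 assignments allow.

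*Rec8* (ENSMUSG00000002324; chromosome 14, 55855455 to 55862852, + strand) had 29.5, 25.1, 32.0 and 32.8 CPM in controls 1 to 4 and 21.9, 28.3, 39.4 and 35.03 CPM in cKO 1 to 4. The cKO samples spread more than the controls, with the lowest value in cKO 1 and the highest in cKO 3. A log2 fold change of 0.06 ± 0.17 (SE), with an interval of -0.31 to 0.43, did not pass the test (edgeR adjusted p = 0.95).

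*Rad21l* (ENSMUSG00000074704; chromosome 2, 151487324 to 151510453, - strand), a kleisin specific to meiosis, had the largest positive estimate of the 10. It had 13.4, 13.8, 17.4 and 13.2 CPM in controls 1 to 4 and 16.5, 18.5, 18.6 and 15.96 CPM in cKO 1 to 4. Controls 1, 2 and 4 lay below all cKO samples, while control 3 lay above cKO 1 and cKO 4. The log2 fold change of 0.27 ± 0.14 (SE; interval -0.03 to 0.56) missed the threshold (edgeR unadjusted p = 0.075, adjusted p = 0.60).

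*Smc1b* (ENSMUSG00000022432; chromosome 15, 84948882 to 85016204, - strand) had 237.0, 210.1, 263.0 and 193.9 CPM in controls 1 to 4 and 227.1, 206.4, 252.0 and 219.99 CPM in cKO 1 to 4. Its log2 fold change was 0.00 ± 0.10 (SE), with an interval of -0.21 to 0.22 (edgeR adjusted p = 1.00). Replicate 3 was the highest of both genotypes, and the groups overlapped almost fully.

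**Figure D2:**
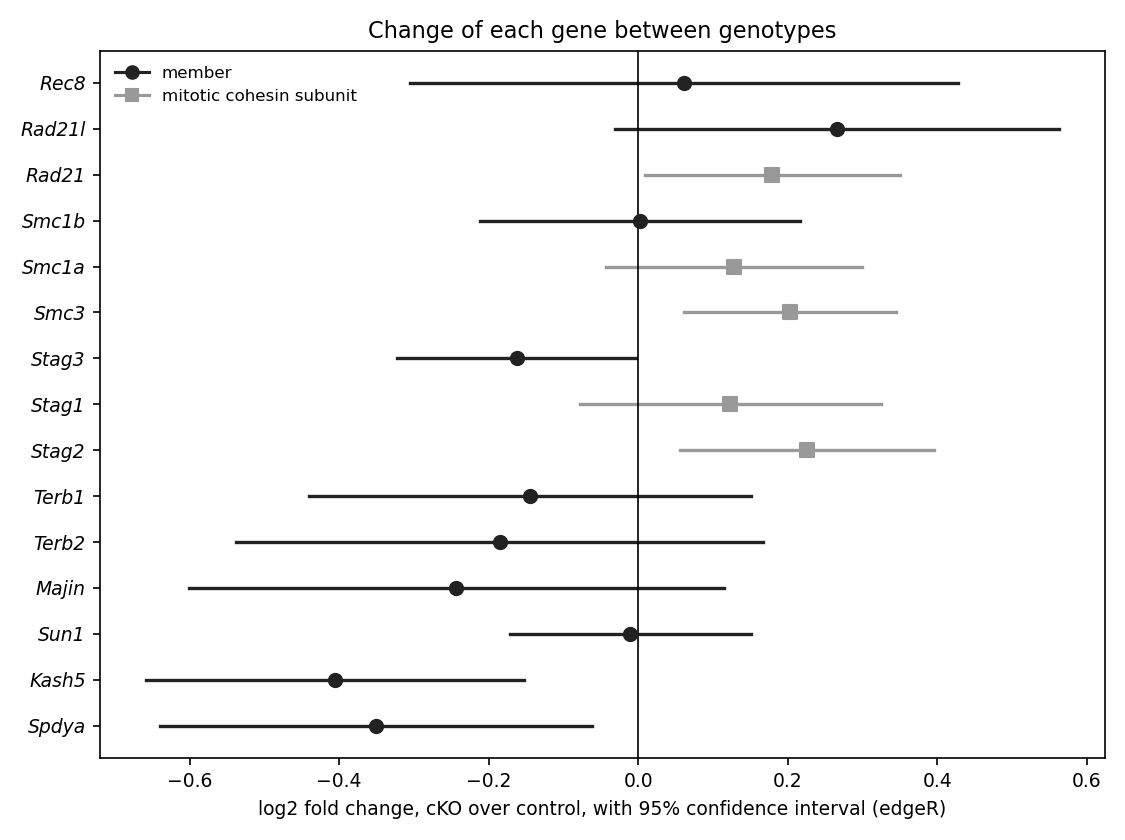
The log2 fold change (cKO over control) of each gene is plotted with its 95% confidence interval from edgeR. Circles mark the 10 genes and squares the mitotic cohesin subunits, of which *Smc3* is shared with meiotic cohesin. The intervals of *Kash5* (-0.66 to -0.15), *Spdya* (-0.64 to -0.06) and *Stag3* (-0.32 to -0.0026) lie below 0. Those of *Smc3* (0.06 to 0.34), *Rad21* (0.0086 to 0.35) and *Stag2* (0.06 to 0.40) lie above 0. The *Smc1b* and *Sun1* estimates lie near 0. The intervals are not adjusted for the number of genes tested.

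Mitotic cohesin subunits were measured in the same libraries, and none passed the edgeR test. *Rad21*, the mitotic kleisin, had 112.8 ± 6.76 TPM in controls and 125.7 ± 7.96 in cKO samples (SD, n = 4; log2 fold change 0.18, edgeR adjusted p = 0.54). *Smc3*, the shared partner of both SMC1 forms, had 67.6 ± 6.51 and 75.5 ± 2.67 TPM (log2 fold change 0.20, edgeR adjusted p = 0.42). *Smc1a* (0.13), *Stag1* (0.12) and *Stag2* (0.23) also had positive estimates, with edgeR adjusted p of 0.65, 0.71 and 0.44. All 5, of which *Smc3* is shared with meiotic cohesin, had positive estimates, as did 3 of 4 meiotic subunits. Of these 3, *Rec8* and *Smc1b* lay near 0 and changed sign under other processing. Over all genes tested, 48.6% of estimates were negative.

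The share of the meiotic form in each subunit family was taken from TPM within each library, as a description without a test. *Stag3* made up 66.0%, 66.7%, 65.9% and 67.5% of the STAG transcripts in controls 1 to 4 and 56.5%, 63.4%, 61.5% and 62.3% in cKO 1 to 4. Every cKO library lay below every control, with means of 66.5% ± 0.760 and 60.9% ± 3.07 (SD, n = 4) and a difference of -5.61 percentage points. Of single genes tested, 3.39% were lower in TPM without overlap. How often shares of other gene families separate in this way was not taken. *Smc1b* made up 74.0% ± 3.16 and 72.1% ± 3.30 of the SMC1 transcripts, and *Rec8* with *Rad21l* 28.5% ± 3.68 and 28.1% ± 4.51 of the kleisins, and both overlapped between genotypes. Mitotic subunits are also made by somatic cells and spermatogonia, whose markers stood at 772 to 950 TPM in controls and 888 to 1130 TPM in cKO samples for spermatogonia. Their part in the STAG share was not tested.

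**Figure D3:**
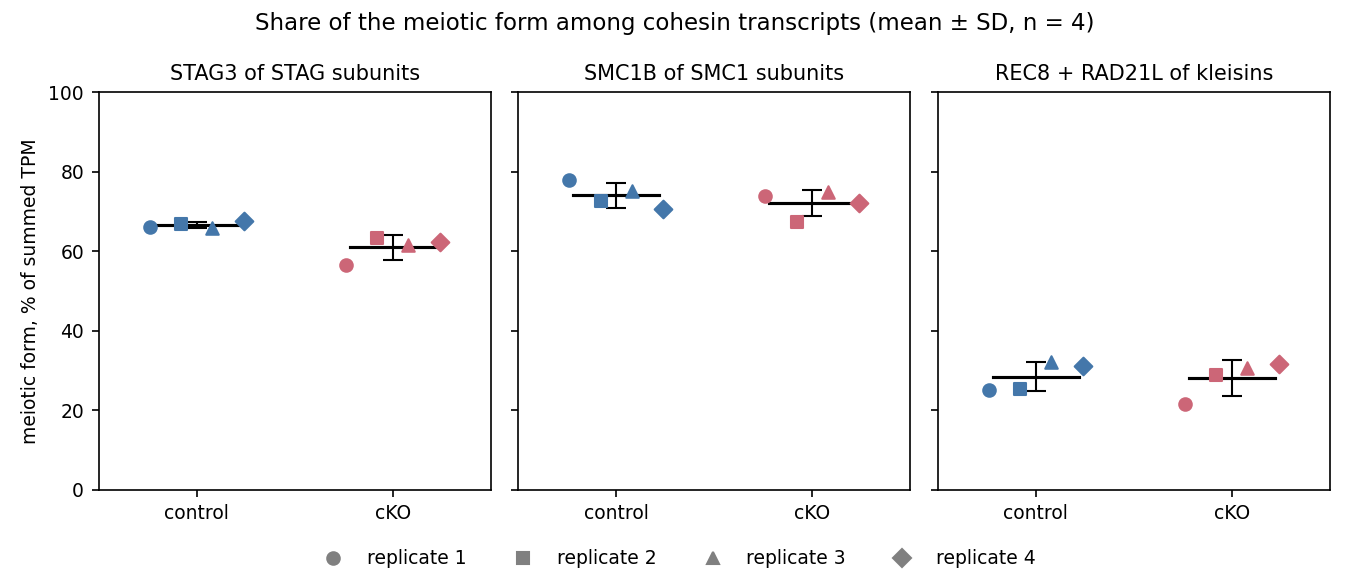
The share of the meiotic form (percent of summed TPM, axis 0 to 100) is plotted per library for the STAG, SMC1 and kleisin families, with mean ± SD and marker shape for the replicate number. The STAG3 share lies at 65.9% to 67.5% in controls and 56.5% to 63.4% in cKO libraries, without overlap, and the other families overlap. How often other shares separate was not taken.

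Of the telomere complex, whose proteins link telomeres to the inner nuclear membrane, all 3 genes had lower means in the cKO samples, none of them past the test. *Majin* (ENSMUSG00000024786; chromosome 19, 6234367 to 6274260, + strand), the membrane-anchored subunit, had 14.5, 16.9, 17.3 and 13.4 CPM in controls 1 to 4 and 11.8, 15.5, 14.8 and 10.4 CPM in cKO 1 to 4. Within this overlap, cKO 1 and cKO 4 lay below every control. In *Majin*, the log2 fold change was -0.24 ± 0.16 (SE; interval -0.60 to 0.11; edgeR adjusted p = 0.68).

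*Terb1* (ENSMUSG00000052616; chromosome 8, 105173351 to 105236545, - strand), which binds the shelterin protein TRF1, had 32.9 ± 6.49 CPM in controls (24.8 to 39.5) and 29.7 ± 1.44 in cKO samples (27.7 to 31.0; SD, n = 4). Its cKO values lay inside the control range, with a log2 fold change of -0.14 ± 0.14 (SE; interval -0.44 to 0.15; edgeR adjusted p = 0.78). *Terb2* (ENSMUSG00000027229; chromosome 2, 122016728 to 122052785, + strand), which joins TERB1 to MAJIN, had 14.1, 10.4, 12.8 and 10.1 CPM in controls and 10.8, 8.99, 11.4 and 10.6 CPM in cKO samples. At -0.19 ± 0.16 (SE; interval -0.54 to 0.17), its log2 fold change did not pass either (edgeR adjusted p = 0.75). *Terb2* was the least deeply counted of the 10, with 129 to 207 expected counts in controls.

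The LINC genes, whose products cross the envelope, differed in their estimates. *Kash5* (ENSMUSG00000038292; chromosome 7, 44831699 to 44854504, - strand), which encodes the outer membrane partner that recruits dynein, had 51.8, 55.8, 48.8 and 38.8 CPM in controls 1 to 4 and 33.9, 35.6, 38.6 and 39.4 CPM in cKO 1 to 4. Control 4 was the only control below a cKO sample, namely cKO 4. On the TPM scale, controls 1 to 4 had 39.96, 45.0, 38.4 and 32.9 and cKO 1 to 4 had 26.1, 28.6, 31.8 and 31.7, without overlap. Control 4 and cKO 3 lay close together, and 3.39% of all genes were lower in TPM without overlap. The log2 fold change was -0.41 ± 0.12 (SE; interval -0.66 to -0.15), which is a change of -24.5% (interval -36.6% to -10.1%). This is the largest change of the 10 in either direction, with an unadjusted p of 0.0044 that gave an edgeR adjusted p of 0.35 over all genes, and the exact permutation p was 0.057. With replicate number as a block, the edgeR adjusted p of *Kash5* was 0.014. An antisense transcript, *Gm31097*, overlaps 438 exonic bases of *Kash5* (5.21% of them), and its share of the reads cannot be separated in libraries without strand.

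*Sun1* (ENSMUSG00000036817; chromosome 5, 139185970 to 139235606, + strand), the inner membrane partner that many somatic cells also make, had 171.6 ± 12.1 CPM in controls and 170.3 ± 10.1 in cKO samples (SD, n = 4). Its log2 fold change was -0.01 ± 0.07 (SE; interval -0.17 to 0.15; edgeR adjusted p = 0.98), the narrowest interval of the 10 together with that of *Stag3*.

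*Spdya* (ENSMUSG00000052525; chromosome 17, 71859027 to 71896534, + strand), the CDK2 activator at telomeres, had 53.3, 42.3, 55.5 and 35.4 CPM in controls 1 to 4 and 38.3, 35.2, 36.9 and 35.96 CPM in cKO 1 to 4. Controls 1 to 3 lay above all cKO samples and control 4 lay below cKO 1, 3 and 4. The controls spread over 9.45 CPM (SD) and the cKO samples over 1.33 CPM. The log2 fold change was -0.35 ± 0.13 (SE; interval -0.64 to -0.06), with an edgeR unadjusted p of 0.022 and an adjusted p of 0.47, and the exact permutation p was 0.114. With replicate number as a block, the edgeR adjusted p of *Spdya* was 0.033. Its level is uncertain, because 496 of its exonic bases (21.1%) overlap *Trmt61b* on the other strand, which had a mean of 7.08 TPM. On the same strand, *Mettl4-ps1* overlaps 250 exonic bases (10.6%), and a pseudogene on the other strand overlaps 117 (4.98%). No TPM was available for either.

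Pachytene is a later prophase stage. The summed level of markers of pachytene spermatocytes was 2371, 777, 1052 and 651 TPM in controls 1 to 4 and 813, 353, 362 and 306 TPM in cKO 1 to 4. The groups overlapped, since cKO 1 lay above controls 2 and 4. These markers had a median log2 fold change of -1.23, with 2 of 10 at an unadjusted p under 0.05 (*Piwil1* and *Hspa2*) and 0 called by edgeR (1 by DESeq2, *Piwil1*). That median fell between *Pou5f2* (-1.28 ± 1.16, SE) and *Ccna1* (-1.18 ± 1.05, SE). Their counts ran from 5 to 163 and from 2 to 100 per library, both highest in control 1, so the median rests on sparsely counted genes. Counts at an unadjusted p under 0.05 here and for the related genes stand beside 6.28% lower and 2.62% higher over all genes tested. Early prophase markers had a median of 0.14 and spermatogonial markers of 0.19, with 0 of 10 called by edgeR in each (at an unadjusted p under 0.05, 1 of the first, *Spo11*, and 0 of the second). Spermatid markers were low, at 33.0 to 83.2 TPM in controls and 20.3 to 34.4 in cKO samples, and *Tnp2* and *Prm1* were at 0 in every library. The 6 of 10 spermatid markers tested had a median of -0.71, with 0 called by edgeR and *Acr*, an acrosomal protease gene, at -1.90 (edgeR unadjusted p = 0.022, edgeR adjusted p = 0.47, DESeq2 adjusted p = 0.033). Of these 6, *Gapdhs* had 4 counts in control 3 and 0 in every other library, so it passed the filter only through a control. *Tnp1* had 0 to 7 counts per library. With such markers near 0 among the 6, their median is not read as a change. The part of stage composition in the differences of *Kash5*, *Spdya* and *Stag3* was not tested.

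Related genes were then counted in 4 lists, in which DESeq2 also called 0 genes. Of 14 genes of cohesin core and loading, 0 were called by edgeR and 4 were higher at an unadjusted p under 0.05 (*Smc3*, *Rad21*, *Stag2* and *Esco2*), with 11 positive estimates, a median of 0.09 and extremes of -0.21 (*Hdac8*, the SMC3 deacetylase) and -0.09 (*Nipbl*, the loader) against 0.20 (*Esco2*, an acetyltransferase) and 0.23 (*Stag2*). Of 10 genes of cohesion protection and removal, 0 were called and 2 were lower at an unadjusted p under 0.05, with a median of -0.13. These were *Meikin*, a kinetochore regulator of the first meiotic division, at 8.73 ± 3.53 and 4.31 ± 1.62 CPM (SD, n = 4; log2 fold change -1.02, edgeR adjusted p = 0.42), and *Pttg1*, the securin, at -0.36 (edgeR adjusted p = 0.45). *Aurkc* (-0.50), *Sgo1* (0.08) and *Bub1* (0.10) were the other extremes of that list.

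Of 17 genes of the telomere, LINC complex and nuclear envelope, 0 were called by edgeR and 0 were at an unadjusted p under 0.05, with a median of 0.01 and extremes of -0.18 (*Acd*) and -0.12 (*Terf1*, encoding TRF1) against 0.08 (*Pot1a*) and 0.22 (*Emd*, encoding emerin). Of 11 genes found and tested of 12 listed for the chromosome axis and synapsis, a list that also holds the meiotic entry factors *Stra8* and *Meiosin*, 0 were called, and at an unadjusted p under 0.05 *Syce1* and *Syce3* were lower and *Syce2* and *Stra8* higher, with a median of -0.09. *Syce1* (-0.50) and *Sycp2* (-0.33) had the lowest estimates and *Syce2* (0.21) and *Stra8* (0.20) the highest, where the 3 *Syce* genes encode central element proteins of the synaptonemal complex.

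**Figure D4:**
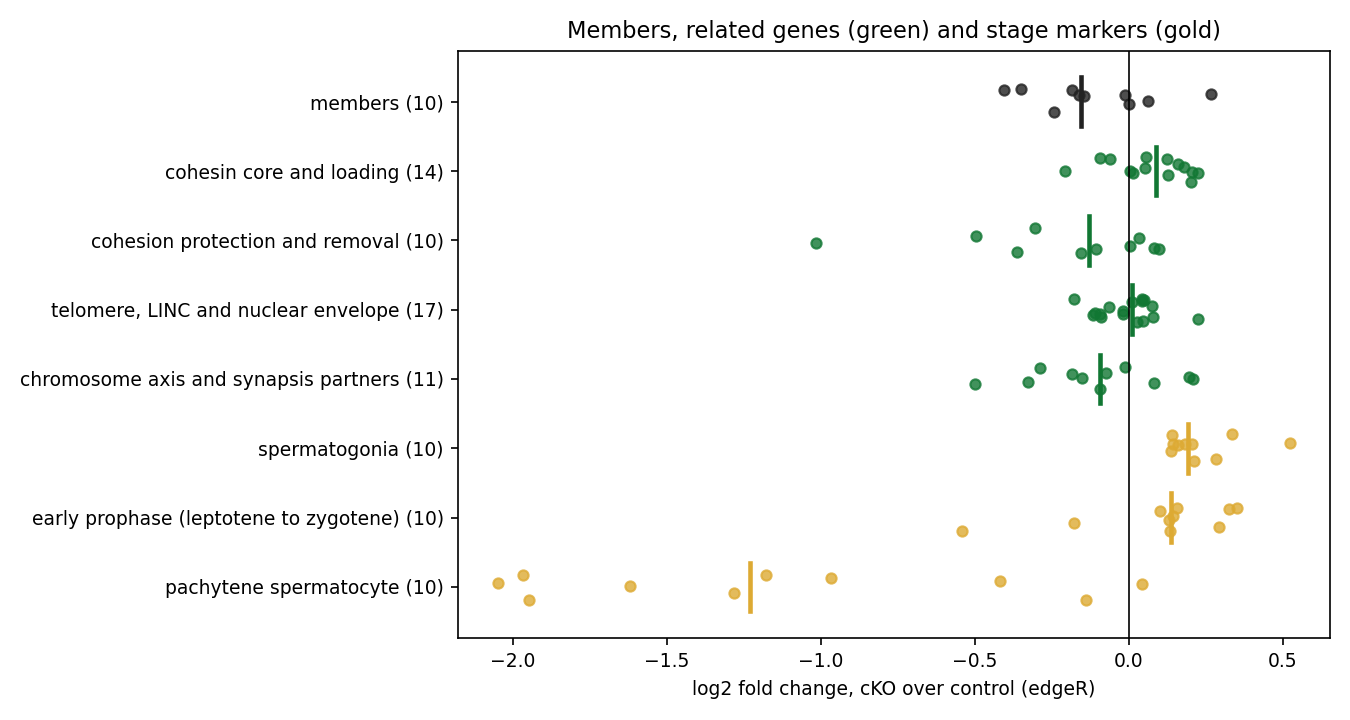
Each point is the log2 fold change (cKO over control, edgeR) of 1 tested gene, by list, with a vertical bar for the list's median and the number of genes in parentheses. The 10 genes described have a median of -0.15, between the pachytene markers (-1.23) and the spermatogonial markers (0.19). The pachytene median rests on *Pou5f2* and *Ccna1*, which had few counts.

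The pattern of the 10 genes was the mean of their z-scored log2 CPM, itself z-scored again over the 8 libraries. On this rescaled measure it was highest in control 3 (1.68) and control 1 (1.23) and lowest in control 4 (-1.28). The rescaling widens the values, so they do not show how closely the 10 genes moved together. Among all other genes tested, the nearest to this rescaled pattern by root mean square distance were *Zfp81* (0.294), *Gm36608* (0.321), *Gm17324* (0.321), *Gm8603* (0.329) and *Btaf1* (0.350). *Zfp81* had 21.1 ± 2.93 CPM in controls and 19.3 ± 0.855 in cKO samples, and *Btaf1*, a TATA-binding protein regulator, had 264.5 ± 24.8 and 253.6 ± 5.81 (SD, n = 4). The 3 genes named by Gm numbers had means near or under 1 CPM and rest on few reads.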

How the data were processed

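The authors made non-stranded poly(A) libraries, aligned paired reads to GRCm39 (mm39) with STAR 2.7.9a and quantified genes with RSEM 1.3.3. The authors deposited expected counts and TPM of 55357 genes for 8 samples, 1 per mouse, without normalization between samples. Expected counts were rounded (15.2% of nonzero values were not whole) and used for tests, and deposited TPM served for the filter, levels and shares. Genes with a TPM of 1 in at least 1 sample were tested, as in the study's filter, with edgeR 4.0.16 (TMM, robust quasi-likelihood F-test, genotype only, Benjamini-Hochberg adjustment over 20187 genes, threshold 0.05). Exact two-sided permutation tests used all 70 assignments. DESeq2 1.42.0 and limma 3.58.1 under R 4.3.3 were alternatives, as were other normalizations, filters, pseudocounts of 1 and 0.1, a replicate block and leaving out each sample. The edgeR p-values set the genotype difference against the spread between these mice. Scripts were tested on simulated counts. Per the labels, replicate numbers come with the sample titles, and no batch is given. The paper reports the same RNA quality number for all samples, and less total RNA from every cKO sample than from any control.

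The 10 genes, the related gene lists and the markers were chosen with earlier results of these data known. Named genes were the 10, *Mgat2*, any listed gene called, the 2 lowest and 2 highest estimates of each list, the mitotic paralogues and the 5 nearest patterns. *Meikin*, *Pttg1*, *Spo11*, *Piwil1*, *Hspa2*, *Pou5f2*, *Ccna1*, *Acr* and other genes counted in groups of 5 or fewer beyond this were named after their values were seen. One listed gene (*Six6os1*) was not found by symbol and was not analysed here. Summed marker levels were also taken for the other cell types: Leydig cells 40.4 to 101.8 TPM in controls and 59.3 to 85.3 in cKO samples, peritubular myoid cells 386 to 517 and 350 to 660, macrophages 24.7 to 41.8 and 32.8 to 46.1, and endothelial cells 14.1 to 31.0 and 16.2 to 28.5. Gene positions are from GENCODE release M39 (GRCm39), exonic overlaps from the same annotation, and promoters from RefSeq (GRCm38.p6). Intervals give the uncertainty of the fold change, from the spread between samples as edgeR fits it.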

Additional observations from a re-analysis of the deposited data

Results flagged for a closer look

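In groups of 4 samples, a lone value was set against the gap to its nearest neighbour over the group's range, and is given where that ratio was above Dixon's 95% critical value. Over 30 groups looked at, chance alone marks about 1 in 20. *Rad21l* in control 3, at 17.4 CPM, stood apart from the other controls (13.2 to 13.8), with a gap of 0.853 of the range. *Sun1* in cKO 2, at 155.3 CPM, stood below the other cKO samples (173.7 to 176.1), with a gap of 0.883 of the range.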

How the results depend on the processing

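The number of the 10 genes called stayed at 0 under 18 of 19 alternatives and was 2 with a replicate block (*Kash5*, log2 fold change -0.40, edgeR adjusted p = 0.014, and *Spdya*, -0.33, adjusted p = 0.033). The genes called overall went from 8 to 1464 with the replicate block. Same-numbered samples correlated at 0.535, 0.145, 0.0389 and 0.197 for numbers 1 to 4, and control 2 correlated best with cKO 4 and not with its own number, so the numbers are not read as pairs, although the mean correlation was 0.229 for the same number and -0.0683 for different ones. With the block, 3 cohesin core and loading genes were called higher, and 2 cohesion protection and removal genes, 6 pachytene markers and 2 spermatid markers lower. The early prophase markers then had 1 called in each direction, and the other lists had 0. Overall calls were 302 with DESeq2, 0 with limma-voom and with limma-trend at either pseudocount, 18 with upper-quartile normalization, 17 with library totals only, 35 without a filter, 0 with filterByExpr, and 0 to 32 when leaving out each replicate, with 32 without control 4. With replicates 2 to 4 only, an alternative chosen after seeing the data, 845 genes were called (*Kash5* -0.34, edgeR adjusted p = 0.075). The cause of these shifts was not tested. Over all 19, *Kash5* ran from -0.50 to -0.33 (adjusted p 0.014 to 0.81), *Spdya* from -0.46 to -0.26 (0.033 to 0.81), *Stag3* from -0.22 to -0.11 and *Rad21l* from 0.23 to 0.37. Of 190 values of single genes, 15 changed sign, all in *Smc1b*, *Sun1* and *Rec8*, which lay near 0. *Smc1b* was -0.0068 with DESeq2 and with DESeq2 size factors, -0.0228 and -0.0230 with limma-trend, -0.00067 with library totals, and ran from -0.0589 to 0.0833 when leaving out each replicate. *Sun1* was 0.0168 with upper-quartile normalization and 0.0062 with replicates 2 to 4 only, and ran from -0.0506 to 0.0316 when leaving out each replicate. *Rec8* ran from -0.0710 to 0.198 likewise. The depth (from 129 counts per library in *Terb2*) and 4 mice a group limit the precision to the intervals given.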
